A study of Arabidopsis thaliana with 6 samples.

Results

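A set of 43 Arabidopsis thaliana protein-coding genes carried a chromatin immunoprecipitation (ChIP-seq) peak of the chromatin protein DEK3 in every one of the 3 overexpressor lines that were profiled. They were chosen from 27432 protein-coding genes on the 5 nuclear chromosomes by 1 rule, that the gene span overlaps a deposited peak of each line by 1 bp or more. The rule was met by 51 genes, of which 8 were set aside by name, among them DEK3 itself. Since the peaks chose the genes, all peak values below are descriptions and carry no test.

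DEK-domain proteins are abundant chromatin proteins that bind DNA and histones, and in plants and animals they have been linked to the topology and accessibility of chromatin. A peak in a ChIP-seq list marks a stretch where immunoprecipitated fragments piled up in that library. Such a stretch can lie in the promoter, the transcribed body or the end of a gene, and several lines with a peak in 1 gene need not share a position.

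The series holds 6 samples, 3 ChIP libraries and 3 inputs, all from soil-grown Col-0 seedlings that were 14 days old and kept under 16 h of light and 8 h of dark. All plants overexpress AtDEK3 with a CFP tag, and the ChIP used an antibody against GFP. Lines OE3-1, OE9-1 and OE17-4 gave 1 ChIP library each and served as the 3 replicates, and no plants without the transgene are among the samples. The labels do not name the promoter of the transgene, and the inputs were not analysed here, so the values are not enrichments over input. Sequencing gave single-end reads of 36 bp.

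The OE3-1 list held 5332 peaks (1235876 reads), that of OE9-1 3733 peaks (814853 reads) and that of OE17-4 3426 peaks (549029 reads). Total depth is unknown, because the lists count reads inside peaks alone. The call rate over all genes was 15.7% for OE3-1 (4301 genes), 5.26% for OE9-1 (1444 genes) and 9.22% for OE17-4 (2528 genes). All 3 lines together called 0.186% of genes (1.08% had OE3-1 with OE9-1, 1.91% OE3-1 with OE17-4 and 0.594% OE9-1 with OE17-4), and the 51 genes made up 1.19% of the OE3-1 genes, 3.53% of the OE9-1 genes and 2.02% of the OE17-4 genes. The rule fixed these counts, so nothing is read from them. Of the 43 genes, 12 lie on chromosome 1, 13 on chromosome 2, 4 on chromosome 3, 7 on chromosome 4 and 7 on chromosome 5. Chromosome 2 thus held 30.2% of the set and 15.7% of all genes, and chromosome 3 held 9.30% and 19.9%.

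The 43 genes were long. Their median length was 4821 bp (exact binomial 95% interval of the median 3394 to 5855 bp, quartiles 2994 and 6845 bp), against 2078 bp over all protein-coding genes. They ranged from AT3G47830 with 1428 bp to AT4G17140 with 23544 bp. Of the 43, 39 were longer than the median of all genes and 32 were longer than its upper quartile of 3030 bp. Genes with a peak of no line had a median length of 1867 bp, those with 1 line 2689 bp and those with 2 lines 3507 bp. Length is tied to the rule, since a long gene offers more positions to a peak, and the part of length in the choice of these genes was not tested.

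Longer genes had a peak more often in each line. In genes under 1000 bp, 3.11% had an OE3-1 peak, 2.17% an OE9-1 peak and 4.30% an OE17-4 peak, and no gene had all 3. From 5000 to under 10000 bp the shares were 42.3%, 13.2% and 17.9%, and 20 of 1517 genes had all 3 lines (1.32%). At 10000 bp or more they were 66.4%, 22.1% and 21.3%, and 6 of 122 genes had all 3 (4.92%). Of the 43 genes 16 fell in the class from 5000 bp and 4 in the longest class, namely AT4G17140, AT2G36810, DEK1 and EMB2788.

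**Figure D1:**
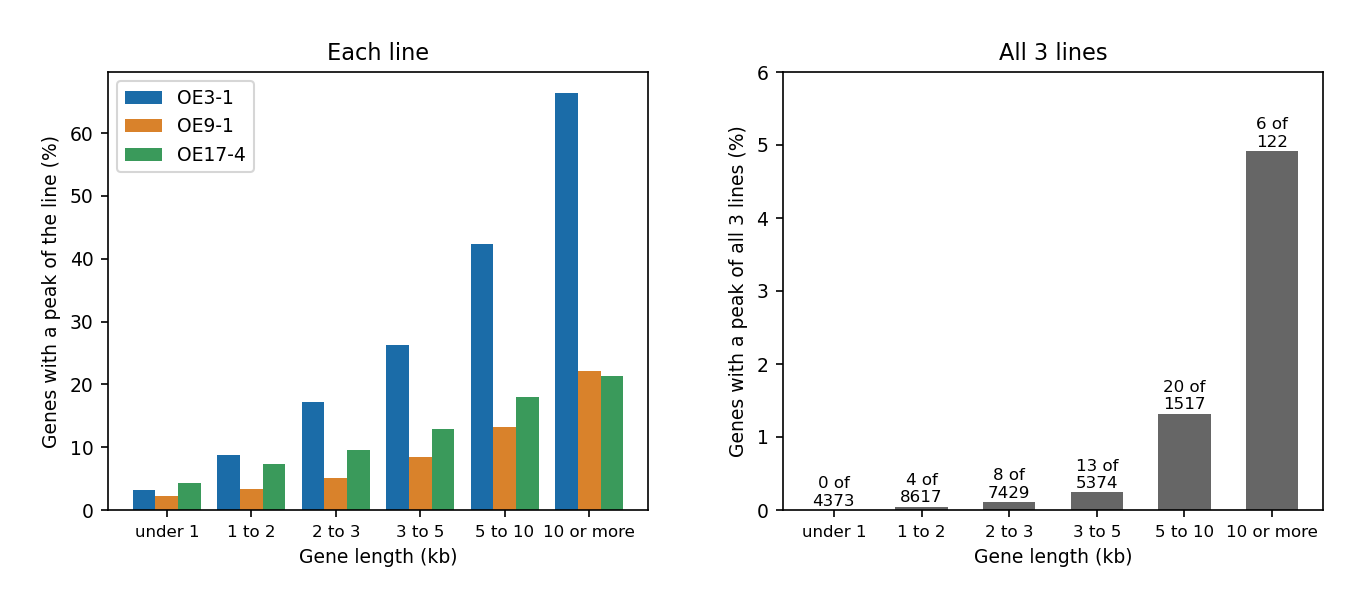
Share of protein-coding genes with a peak, in percent, by gene length in kb, for each line (left) and for all 3 lines together (right, with the number of genes before 8 were set aside). All bars start at 0. The share of genes with all 3 lines goes from 0 of 4373 in the shortest class to 6 of 122 in the longest.

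Most genes held the least that the rule asks for. In 35 of the 43 there was exactly 1 peak of each line, 6 genes held 4 peaks, SRFR1 held 5 and AT4G17140 held 7. The 43 genes held 141 peaks in all, 48 of OE3-1, 47 of OE9-1 and 46 of OE17-4. The map of peak midpoints shows where the peaks of the 3 lines fall within each gene.

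**Figure D2:**
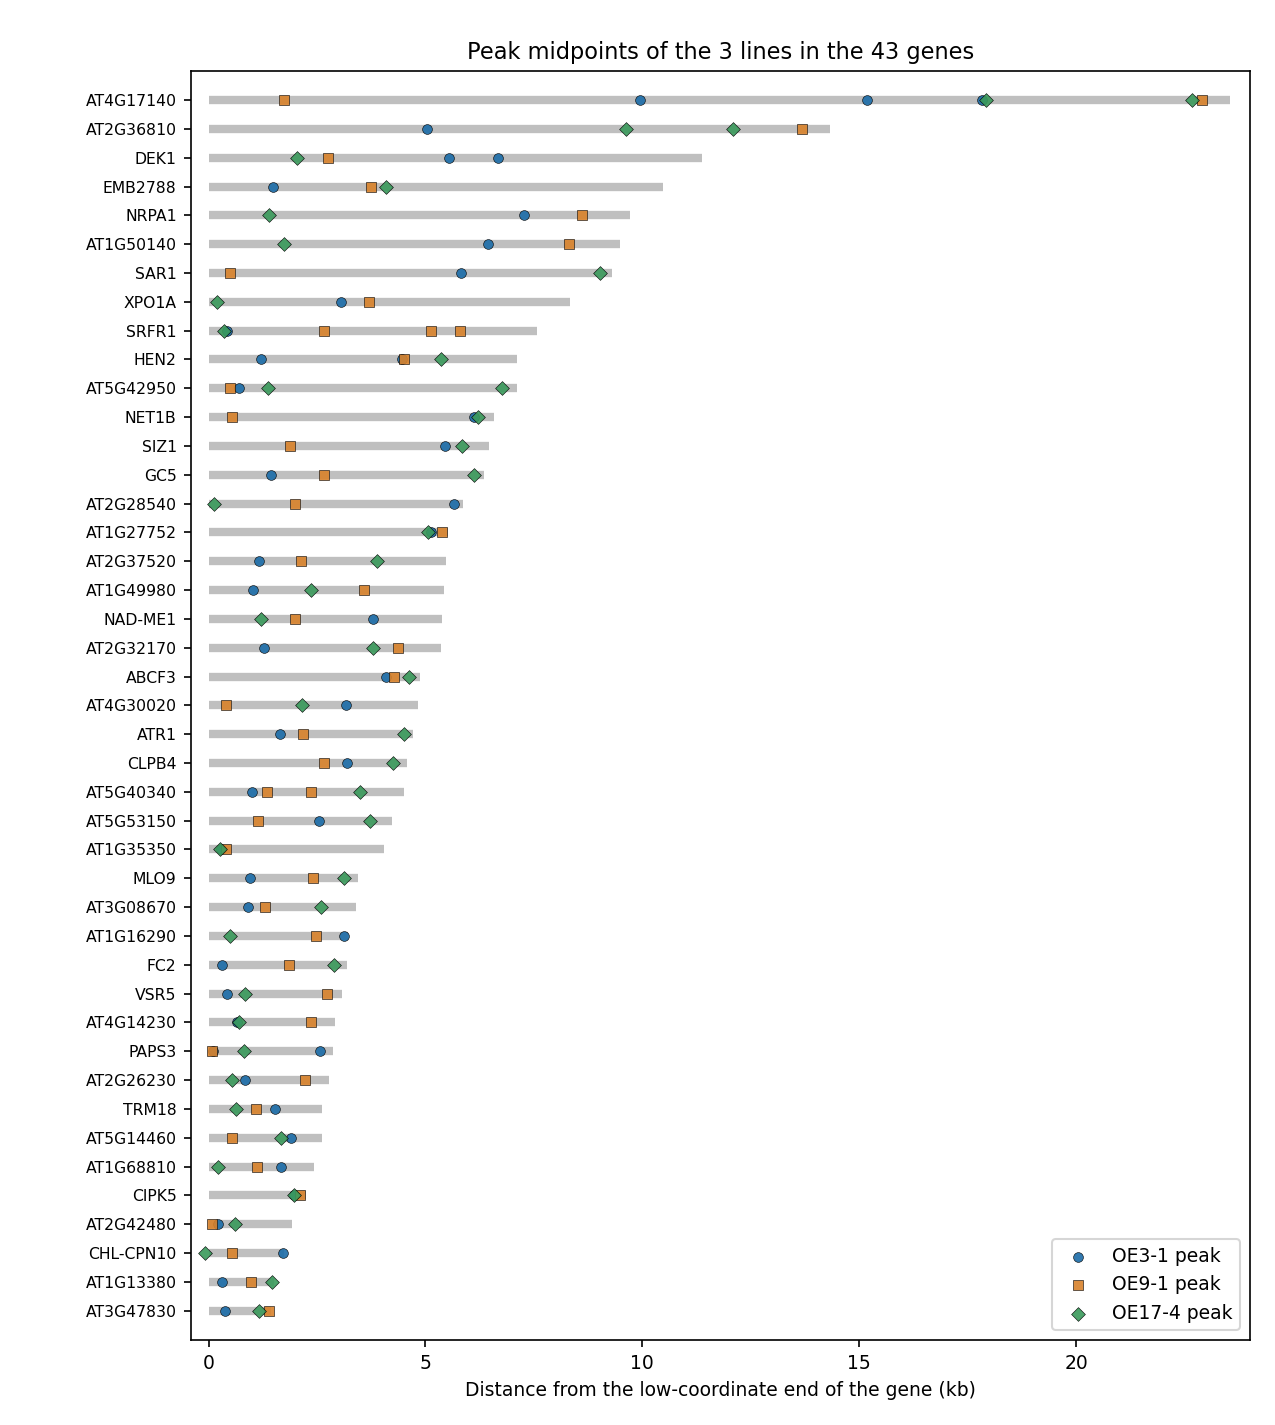
Each grey bar is 1 of the 43 genes, drawn to scale in kb from its low-coordinate end and sorted by length, and each symbol is the midpoint of a deposited peak of OE3-1 (circle), OE9-1 (square) or OE17-4 (diamond). In most genes the symbols are spread along the bar. In AT1G27752, AT1G35350 and CIPK5 all 3 lines fall within 500 bp.

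By function the set was mixed. The gene table gives 21 of the 43 a symbol and names 3 more through synonyms (AT1G68810, AT2G26230 and AT2G36810), and the other 19 are known here by their locus number alone and are given no role. Among the named genes 5 belong to membrane traffic and transport, 4 to protein folding and turnover, 4 to metabolism and the chloroplast, 3 to signalling, 3 to RNA processing and translation, 2 to transcription and 2 to the cytoskeleton. EMB2788, named for its embryo-lethal phenotype, was placed in no class. No enrichment was tested for any class.

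The transport genes move cargo through the nuclear envelope, the Golgi and the vacuole. SAR1 (AT1G33410) encodes the nuclear pore protein NUP160, and XPO1A (AT5G17020) the nuclear export receptor exportin 1. GC5 (AT1G79830) is a golgin, a tether of Golgi vesicles. VSR5 (AT2G34940) is a vacuolar sorting receptor, and SGR6 (AT2G36810) acts in shoot gravitropism. Their median length was 8338 bp, the highest of all classes, and in none of the 5 did peaks of a pair of lines lie within 200 bp. In XPO1A the peaks held 229 reads in OE3-1, 277 in OE9-1 and 106 in OE17-4. GC5 had 201, 289 and 111 reads in the same order of lines, and VSR5 had 173, 270 and 166. In all 3 genes the OE17-4 peak had the fewest reads, and the median over its whole list, 136 reads, was below those of OE3-1 (210) and OE9-1 (202).

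SAR1 had the widest gap between its closest pair of lines among the 43 genes. Its OE9-1 peak lay near an end of the gene, at 12110000 to 12110097 on chromosome 1, with 312 reads and a false discovery rate (FDR, the authors' value per peak) of 1.9%. Its OE3-1 peak at 12115348 to 12115413 held 256 reads (FDR 3.19%). Its OE17-4 peak at 12118535 to 12118651 held 125 reads (FDR 4.4%). The closest pair, OE3-1 and OE17-4, was 3121 bp apart. In SGR6, the second longest gene with 14322 bp, the OE3-1 peak at 15430335 to 15430358 on chromosome 2 held 185 reads (FDR 4.77%). OE17-4 had a pair of peaks there, at 15434876 to 15435029 with 160 reads (FDR 0.19%) and at 15437361 to 15437471 with 110 reads (FDR 1.11%). The OE9-1 peak at 15438967 to 15439032 held 240 reads (FDR 3.23%), and the closest pair, of OE9-1 and OE17-4, was 1495 bp apart. The stretch that held all 3 lines was the longest of the set in SGR6, at 8698 bp, against 8652 bp in SAR1.

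The genes of protein folding and turnover work in several compartments. DEK1 (AT1G55350) encodes the membrane-bound calpain protease Defective Kernel 1, needed for epidermal fate, and SIZ1 (AT5G60410) a SUMO ligase. CLPB4 (AT2G25140) is a mitochondrial disaggregase of the heat shock protein family, and CHL-CPN10 (AT2G44650) a chloroplast co-chaperonin. Their closest pairs of lines were 329 to 604 bp apart. In SIZ1 the peaks held 292, 284 and 185 reads in OE3-1, OE9-1 and OE17-4, and the closest pair was OE3-1 and OE17-4.

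DEK1, the third longest gene with 11371 bp, had OE3-1 peaks at 20659252 to 20659300 (234 reads, FDR 1.7%) and at 20660404 to 20660437 (323 reads, FDR 0.02%) on chromosome 1. Its OE9-1 peak at 20656490 to 20656510 held 284 reads (FDR 1.19%), and its OE17-4 peak at 20655691 to 20655885 held 416 reads (FDR 0.156%), the most of any OE17-4 peak in the set. That row is written in another format than the rest of its list, with 3 dots in the region, and without such rows DEK1 leaves the set. In CLPB4 the OE3-1 peak at 10700767 to 10700861 on chromosome 2 held 453 reads (FDR 1.5%), the OE9-1 peak at 10700263 to 10700310 held 256 (FDR 3.37%) and the OE17-4 peak at 10701798 to 10701942 held 200 (FDR 0.19%). The 3 lines lay at 69.6%, 58.1% and 92.7% of the way along CLPB4.

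CHL-CPN10 is the member nearest to the limit of the rule and the third shortest, with 1741 bp. Its OE17-4 peak at 18419197 to 18419370 on chromosome 2 (101 reads, FDR 0.79%) overlaps the gene by 1 bp, lies in the neighbouring gene AT2G44640 and is assigned to that gene in the authors' gene column. Its OE3-1 peak at 18421050 to 18421126 (309 reads, FDR 0.1%) runs over the other end of the gene into AT2G44660, with 61 of 77 bp inside CHL-CPN10. Its OE9-1 peak at 18419880 to 18419938 (264 reads, FDR 1.22%) is the only one that lies wholly inside. The authors' gene column assigns that peak to AT2G44640 as well. On the other side of the limit, 829 genes had peaks of exactly 2 lines. In 3 of them the third line had a peak within 200 bp of the gene: OE17-4 at 101 bp from FKBP53 (88 reads), OE3-1 at 130 bp from AT1G07220 (221 reads) and OE9-1 at 170 bp from PIE1 (144 reads).

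The metabolic genes were NAD-ME1 (AT2G13560), a mitochondrial malic enzyme, FC2 (AT2G30390), a ferrochelatase of heme synthesis, ATR1 (AT4G24520), a cytochrome P450 reductase, and AT2G26230, which encodes urate oxidase. Peaks of OE3-1, OE9-1 and OE17-4 held 223, 217 and 97 reads in NAD-ME1. They held 202, 285 and 137 reads in FC2. Urate oxidase had 202, 305 and 191 reads in the same order. In each of these genes the peaks of the 3 lines were apart, with the closest pair 654 bp, 947 bp and 223 bp apart. In ATR1 the OE3-1 peak at 12664181 to 12664221 on chromosome 4 held 312 reads (FDR 1.57%) and the OE9-1 peak at 12664718 to 12664767 held 221 (FDR 2.25%). The OE17-4 peak at 12667009 to 12667138 held 138 reads (FDR 0.25%) and lay close to the other end of the gene, at 96.0% of its length.

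The signalling genes held some of the closest peaks. CIPK5 (AT5G10930) encodes a kinase that partners calcium-sensing CBL proteins, SRFR1 (AT4G37460) a protein that restrains plant immunity, and MLO9 (AT1G42560) a membrane protein of the mildew resistance locus O family. In CIPK5, a gene of 2250 bp, the OE3-1 peak at 3446968 to 3447011 on chromosome 5 held 239 reads (FDR 0.29%). It lay wholly within the OE17-4 peak at 3446945 to 3447060, which held 128 reads (FDR 3.31%). The OE9-1 peak began 7 bp beyond, at 3447068 to 3447211, with 218 reads (FDR 3.8%). All 3 lines thus fell within 267 bp, at 87.1% to 93.8% of the gene, although the peaks of OE9-1 and OE17-4 did not overlap.

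In SRFR1 the OE3-1 peak (353 reads, FDR 0.88%) and the OE17-4 peak (205 reads, FDR 0.13%) were 13 bp apart, centred at 5.5% and 4.5% of the gene. The 3 OE9-1 peaks, with 237, 269 and 283 reads and FDRs of 3.45%, 2.53% and 2.1%, lay at 35.2%, 67.7% and 76.5%. The near pair of lines and the third line were thus in different parts of the gene. In MLO9 the OE3-1 peak held 166 reads, the OE9-1 peak 190 and the OE17-4 peak 62, and the last is the lowest count of any peak in the set.

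All 3 genes of RNA processing and translation had peaks of a pair of lines within 200 bp, against 14 of the 43 genes in all. So did 8 of the 20 genes placed in no class, and spacing by class was not tested. HEN2 (AT2G06990) is an RNA helicase that works with the nuclear exosome, PAPS3 (AT3G06560) a poly(A) polymerase, and ABCF3 (AT1G64550) the plant counterpart of GCN20, known from yeast as a factor of translational control. In HEN2 the OE3-1 peak at 2899327 to 2899414 on chromosome 2 (220 reads, FDR 1.46%) overlapped the OE9-1 peak at 2899367 to 2899462 (289 reads, FDR 1.51%) by 48 bp. A second OE3-1 peak at 2896081 to 2896123 had 274 reads (FDR 0.34%). The OE17-4 peak at 2900181 to 2900324 had 96 reads (FDR 3.16%) and lay 718 bp from the OE9-1 peak. HEN2 is 1 of the 2 genes in which OE3-1 and OE9-1 overlapped.

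The other is PAPS3, where the OE3-1 peak at 2044434 to 2044482 on chromosome 3 (129 reads, FDR 4.47%) and the OE9-1 peak at 2044372 to 2044467 (183 reads, FDR 4.15%) shared 34 bp close to an end of the gene. These are the lowest counts of an OE3-1 and of an OE9-1 peak in the set. A further OE3-1 peak at 2046893 to 2046958 had 221 reads (FDR 2.21%), and the OE17-4 peak at 2045109 to 2045224 had 151 reads (FDR 3.46%). In ABCF3 the OE3-1 peak at 23972772 to 23972914 on chromosome 1 (261 reads, FDR 0.1%) lay 72 bp from the OE9-1 peak at 23972987 to 23973042 (258 reads, FDR 4.36%). The OE17-4 peak at 23973304 to 23973415 (129 reads, FDR 1.23%) followed 261 bp farther on. All 3 lines therefore lay towards the same end of ABCF3, at 84.1%, 87.7% and 94.7% of its length, within 644 bp.

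NRPA1 (AT3G57660), the largest subunit of RNA polymerase I, and AT1G68810, a bHLH transcription factor also called ABS5 or TMO5-LIKE1, were the transcription genes. NRPA1 had 159, 257 and 135 reads in OE3-1, OE9-1 and OE17-4, and its closest pair of peaks was 1273 bp apart. AT1G68810 had 203, 243 and 174 reads, with 499 bp between the closest pair. Neither gene had lines close together.

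The cytoskeletal genes were NET1B (AT4G14760), of a family that links actin to membranes, and TRM18 (AT2G39435), named for a motif that recruits TON1, a protein of cortical microtubule arrays. In NET1B the OE3-1 peak at 8480853 to 8480919 on chromosome 4 (184 reads, FDR 2.69%) lay 6 bp from the OE17-4 peak at 8480926 to 8481029 (156 reads, FDR 0.12%). Both of these peaks also overlap the gene AT4G14770, so they cannot be assigned to 1 of the 2 genes. The OE9-1 peak at 8475228 to 8475381 (322 reads, FDR 0.63%) was at the opposite end of NET1B. TRM18 had nearly equal counts in the 3 lines, 219, 222 and 212 reads, with 378 bp between the closest pair.

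EMB2788 (AT4G27010), of 10466 bp, had 202, 233 and 146 reads in OE3-1, OE9-1 and OE17-4, and 248 bp lay between its OE9-1 and OE17-4 peaks. The genes without a name included the 2 with the tightest groups of peaks besides CIPK5. In AT1G35350 the OE3-1 peak at 12980945 to 12981012 on chromosome 1 (167 reads, FDR 3.41%) overlapped the OE17-4 peak at 12980879 to 12981013 (110 reads, FDR 0.23%) over all of its 68 bp. The OE9-1 peak at 12981068 to 12981132 (240 reads, FDR 2.01%) lay 54 bp away, so that 254 bp held all 3 lines, the shortest such stretch in the set. The authors' gene column assigns all 3 of these peaks to the neighbouring AT1G35340.

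AT1G27752 had the best mean rank by FDR. Its peaks ranked in the first 1.5% of the OE3-1 list, 8.0% of the OE9-1 list and 3.4% of the OE17-4 list, and they held 263, 273 and 258 reads. They occupied 409 bp at 91.7% to 97.2% of the gene. OE3-1 and OE17-4 overlapped by 81 bp there, with FDRs of 0.03% and 0.00368%, and OE9-1 (FDR 0.53%) was 189 bp from the former. In this gene the lines were thus close in position, and each had a peak of high rank in its own list.

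OE3-1 and OE17-4 peaks overlapped in AT4G14230 as well, over 72 bp, at 8200951 to 8201037 (212 reads, FDR 1.65%) and 8200966 to 8201106 (176 reads, FDR 2.32%) on chromosome 4. Its OE9-1 peak was far from both, at 8202655 to 8202737 (275 reads, FDR 3.37%). AT4G17140, the longest gene, had OE3-1 peaks at 42.2%, 64.5% and 75.7% of its length with 187, 184 and 172 reads and FDRs of 3.87%, 2.92% and 4.41%. OE9-1 peaks lay at 7.4% and 97.3% (213 and 254 reads, FDR 1.97% and 3.71%) and OE17-4 peaks at 76.1% and 96.3% (162 and 113 reads, FDR 0.24% and 2.55%). OE17-4 thus neighboured OE3-1 at one site, 17 bp apart, and OE9-1 at another, 118 bp apart.

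In AT5G42950 the OE9-1 peak at 17224730 to 17224804 on chromosome 5 (214 reads, FDR 4.18%) and the OE3-1 peak at 17224917 to 17225016 (217 reads, FDR 2.11%) were 112 bp apart. OE17-4 peaks followed at 17225600 to 17225692 (251 reads, FDR 0.6%) and, near the far end, at 17230980 to 17231093 (169 reads, FDR 0.85%). In AT2G42480 the OE9-1 peak at 17688067 to 17688089 (199 reads, FDR 2.73%) and the OE3-1 peak at 17688182 to 17688269 (188 reads, FDR 3.15%) on chromosome 2 were 92 bp apart. The OE17-4 peak there, at 17688529 to 17688724, had the most reads of the 3 with 298 (FDR 0.27%), whereas OE17-4 had fewer reads than both other lines in 37 of the 43 genes. Its whole list also had the lowest median, 136 reads against 210 in OE3-1 and 202 in OE9-1.

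AT5G14460 and AT3G47830 had a near pair of lines and the remaining line apart. In AT5G14460 the OE17-4 peak at 4661660 to 4661798 (185 reads, FDR 1.77%) and the OE3-1 peak at 4661928 to 4661972 (216 reads, FDR 2.67%) on chromosome 5 lay 129 bp apart, and the OE9-1 peak lay at 4660566 to 4660647 (261 reads, FDR 2.53%). In AT3G47830, the shortest of the 43, the OE17-4 peak at 17648121 to 17648224 (128 reads, FDR 1.51%) and the OE9-1 peak at 17648394 to 17648414 (257 reads, FDR 1.58%) on chromosome 3 lay 169 bp apart, and the OE3-1 peak lay at 17647364 to 17647407 (208 reads, FDR 2.61%). A gene this short leaves little room between peaks. AT1G13380, the second shortest with 1508 bp, still had its lines apart, at 20.2%, 65.5% and 96.2% of its length for OE3-1, OE9-1 and OE17-4, with 175, 220 and 105 reads. Its FDRs of 4.84%, 4.46% and 4.4% gave it the poorest mean rank of the set.

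A further 4 unnamed genes ranked high by FDR with their peaks apart. AT5G40340 had the best-ranked OE3-1 peak of the set, at 16131819 to 16131944 on chromosome 5, with 488 reads and an FDR of 0.00588%. Its OE9-1 peaks had 235 and 307 reads (FDR 4.33% and 3.95%) and its OE17-4 peak 170 reads (FDR 0.04%), at 29.7%, 52.1% and 77.4% of the gene against 22.2% for OE3-1. AT2G32170 had 239, 324 and 280 reads (FDR 0.45%, 1.07% and 0.17%) in OE3-1, OE9-1 and OE17-4, at 23.7%, 81.3% and 70.8% of its length. In both genes the 3 lines were spread along the gene.

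AT4G30020 had 219, 250 and 173 reads (FDR 1.78%, 0.48% and 0.12%) at 65.9%, 8.2% and 44.9% of its length. AT3G08670 had 154, 261 and 263 reads (FDR 2.06%, 2.16% and 0.29%) at 26.5%, 38.5% and 76.6%. Wide spacing marked AT1G50140 and AT2G28540, whose closest pairs were 1820 and 1758 bp apart. AT1G50140 had 175, 298 and 91 reads (FDR 4.36%, 2.8% and 4.1%) at 67.7%, 87.5% and 18.3%. AT2G28540 had 249, 282 and 110 reads (FDR 3.87%, 2.01% and 0.15%) at 96.8%, 34% and 2.2%, so its OE3-1 and OE17-4 peaks sat at opposite ends.

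The last 4 unnamed genes had 1 peak of each line, with 580 to 1093 bp between the closest pair. AT1G16290 had 169, 283 and 120 reads in OE3-1, OE9-1 and OE17-4. AT1G49980 had 198, 255 and 142 reads in the same order. AT2G37520 had 254, 332 and 187 reads, and its OE9-1 peak held the most reads of any OE9-1 peak in the set. AT5G53150 had 263, 260 and 140 reads. OE17-4 had the fewest reads in each of the 4.

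Over the whole set, peaks of a pair of lines overlapped in 6 of the 43 genes. OE3-1 overlapped OE17-4 in 4 and OE9-1 in 2, and in none did OE9-1 and OE17-4 overlap. Overlaps were not counted in other genes, so these counts are not called few or many. The closest pair in a gene was a median of 378 bp apart (exact binomial 95% interval 223 to 580 bp), and it lay within 200 bp in 14 genes and beyond 500 bp in 17. The shortest stretch that held a peak of all 3 lines had a median of 2597 bp, or 58.7% of the gene, and ran from 254 to 8698 bp. It was 500 bp or less in 3 genes, CIPK5, AT1G35350 and AT1G27752. With each gene cut into 3 parts of equal length, all lines had a peak in the same part in 8 of 43 genes. No share for other genes or for an even spread was worked out, so nothing is read from this count.

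For single pairs, the median gap between OE3-1 and OE9-1 was 1273 bp. It was 1061 bp for OE3-1 with OE17-4, and 1028 bp for OE9-1 with OE17-4. Genes with peaks of the same pair and not of the third line had medians of 970 bp (245 genes), 701.5 bp (472 genes) and 886 bp (112 genes), and they were shorter, with median lengths of 3849, 3400 and 3263 bp. As a share of gene length the gaps of OE3-1 and OE9-1 were 21.4% in the 43 genes and 25.5% in the genes with this pair alone. For OE3-1 and OE17-4 these shares were 29.6% and 20.7%, and for OE9-1 and OE17-4 29.6% and 31.0%. OE3-1 and OE17-4 lay within 200 bp in 18.6% of the 43 genes and in 29.2% of the genes with this pair alone. The other pairs differed less, with 18.6% and 19.6% for OE3-1 and OE9-1, and 9.30% and 12.5% for OE9-1 and OE17-4. In bp, the median gap was thus larger in the 43 genes for every pair. The exact binomial 95% interval of the median in the 43 genes was 541 to 1722 bp for OE3-1 with OE9-1. It was 626 to 2393 bp for OE3-1 with OE17-4, and 641 to 1647 bp for OE9-1 with OE17-4. Each interval holds the median of the genes with that pair alone, but the peaks chose the genes, so no difference was tested. As a share of gene length the median gap was larger for OE3-1 with OE17-4 and smaller for the other pairs.

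**Figure D3:**
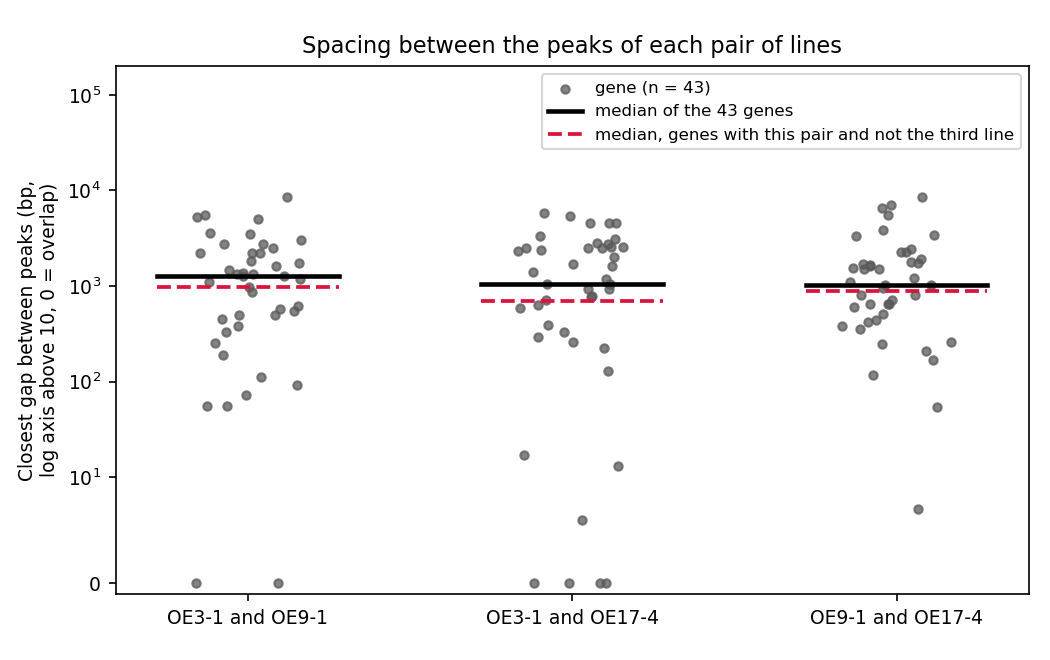
Closest gap between the peaks of each pair of lines, in bp on a log axis above 10, where 0 means overlap. Each point is 1 of the 43 genes, the black line is their median and the dashed line is the median of genes with this pair and not the third line. The black lines lie at 1273, 1061 and 1028 bp, each above the dashed one.

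Position along the gene differed from line to line. Which end is the start of a gene is not given in the table used, so ends are not told apart. Of the OE17-4 peaks in the 43 genes, 4 of 46 had their midpoint in the middle of the gene, from 33.3% to 66.7% of its length (8.70%, exact 95% interval 2.42 to 20.8%), and 42 lay in the outer parts. OE3-1 had 12 of 48 in the middle (25%, 13.6 to 39.6%) and OE9-1 17 of 47 (36.2%, 22.7 to 51.5%). An even spread would put 33.3% there. In other genes with a peak of the line the shares were 27.6% in OE17-4, 33.3% in OE3-1 and 24.6% in OE9-1. OE17-4 and OE3-1 thus lay lower in the set than in other genes, and OE9-1 higher. The intervals of OE3-1 and OE9-1 hold the shares of other genes, and no difference was tested. The order of the lines was the same among genes of 3 to 10 kb, where the set had 6.90%, 20.7% and 41.9% for OE17-4, OE3-1 and OE9-1, against 25.2%, 32.2% and 27.8% in other genes. These intervals cover counting error only, peaks of 1 gene are not independent, and each line is 1 library.

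**Figure D4:**
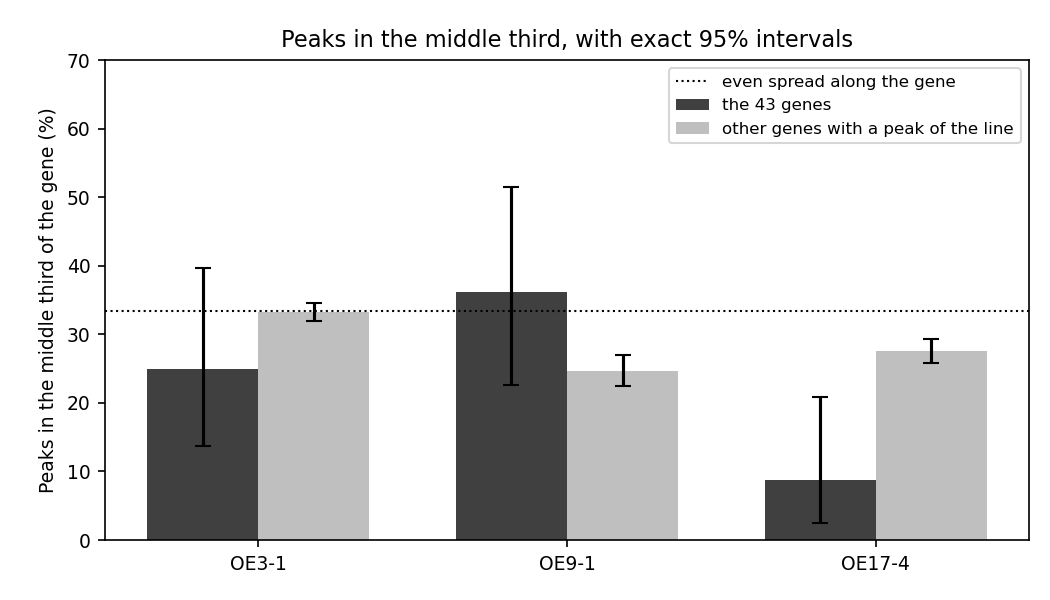
Share of peaks, in percent, whose midpoint lies in the middle of the gene (33.3% to 66.7% of its length), for the 43 genes (dark) and for other genes with a peak of that line (light). Bars start at 0, error bars are exact 95% binomial intervals and the dotted line marks an even spread. The dark bar is lowest in OE17-4, at 8.70%, and highest in OE9-1, at 36.2%.

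In bp, the median distance from a peak midpoint to the nearer end of the gene was 1002 bp for OE3-1 peaks, 1098 bp for those of OE9-1 and 613.75 bp for those of OE17-4. In other genes with a peak it was 731 bp, 400.0 bp and 453.5 bp. Within 500 bp of an end lay 21.3% of the OE9-1 peaks of the set, against 53.9% in other genes. For OE3-1 these shares were 31.3% and 35.4%, and for OE17-4 41.3% and 54.2%. The 43 genes are longer than the others, and among genes of 3 to 10 kb the shares turned for 2 of the lines, on few peaks. There 14 of 29 OE17-4 peaks of the set (48.3%) lay within 500 bp of an end, against 35.7% in other genes. The median distances were 501 and 811.5 bp. OE3-1 had 8 of 29 (27.6%) against 22.6%, with close medians of 1031.5 and 1045.5 bp. None of these differences was tested. OE9-1 kept its direction, with 6 of 31 (19.4%) against 36.5% and medians of 1337.5 and 842 bp. Length was not matched within this range. The set had 12 genes from 3000 to under 5000 bp and 16 from 5000 to under 10000 bp, against 5374 and 1517 of all genes. Distances in bp therefore cannot be told apart from gene length here.

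Reads per peak in the 43 genes were near those of other peaks in genes for 2 of the lines. The median was 216.5 reads in OE3-1 (exact binomial 95% interval 201 to 234) against 213 in other protein-coding genes, and 148.5 in OE17-4 (128 to 173) against 142. In OE9-1 it was 260 (250 to 275) against 232 in other genes and 202 over the whole list, and 37 of the 47 peaks lay above the median of other genes. Other genes of 3 to 10 kb had a median of 239 reads in OE9-1, again below the median of the set. The OE9-1 peaks of the set were narrower as well, with a median of 57 bp against 72 bp in other genes, whereas OE3-1 had 66 against 61 bp and OE17-4 138.5 against 134 bp. Per bp of peak, the set had a median of 4.59 reads in OE9-1 against 3.28 in other genes, 3.36 against 3.59 in OE3-1 and 1.09 against 1.09 in OE17-4. Reads are not compared between lines as binding, because library depth is unknown.

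**Figure D5:**
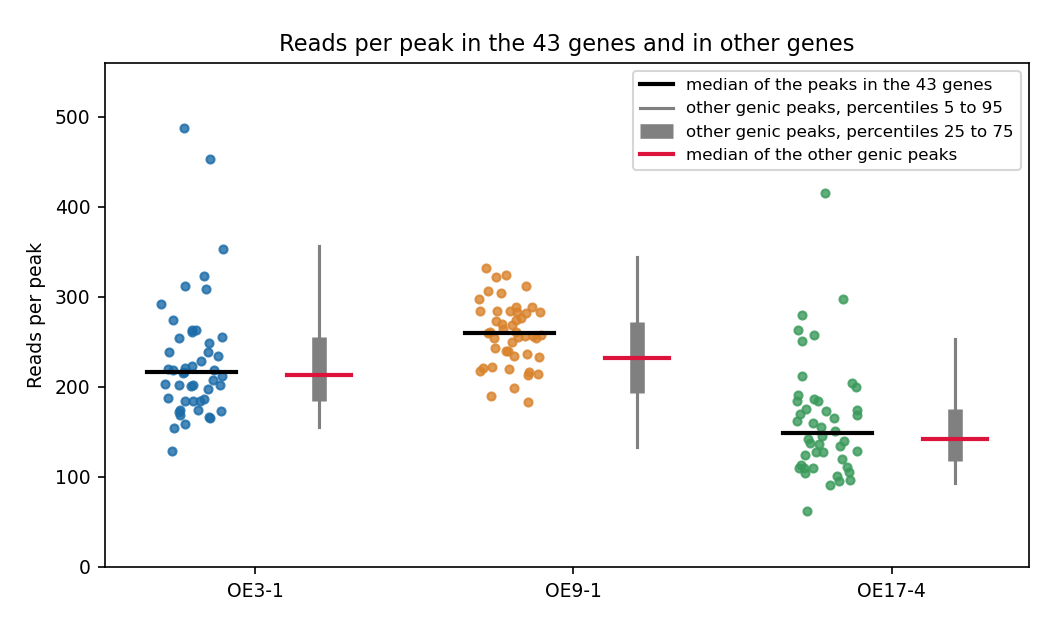
Reads per peak in each line. Points are the peaks in the 43 genes with their median in black, and the grey bars are the other peaks in protein-coding genes (thick, percentiles 25 to 75, and thin, percentiles 5 to 95) with their median in red. The black and red lines nearly meet in OE3-1 and OE17-4, and in OE9-1 the black line is higher, at 260 against 232 reads.

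By FDR the peaks of the set lay near the middle of their lists, with median ranks of 52.6%, 45.6% and 41.7% in OE3-1, OE9-1 and OE17-4. The median FDR of OE3-1 peaks was 2.48%, that of OE9-1 peaks 2.53% and that of OE17-4 peaks 0.72%, against 2.35%, 2.73% and 1.075% over the whole lists. By rank, 24 of 48, 22 of 47 and 21 of 46 peaks lay in the lower 50% of their lists. The first 10% of the lists held 7, 5 and 2 of them. In 8 genes each line had a peak in the upper 50% of its list, namely AT1G27752, DEK1, AT2G32170, AT4G30020, CHL-CPN10, SRFR1, AT3G08670 and ATR1. The place of DEK1 rests on the row written with 3 dots, and that of CHL-CPN10 on an OE17-4 peak with 1 bp inside the gene. No share for other genes was worked out. The median difference between strands, as a fraction of reads, was 0.12, 0.07 and 0.09 in OE3-1, OE9-1 and OE17-4, against 0.11, 0.08 and 0.07 over the lists. The authors' Wilcoxon filter p had a median of 0.03 in the OE9-1 peaks of the set against 0.01 over its list. OE9-1 peaks in other genes of 3 to 10 kb had a median of 0.02. In OE3-1 the median of this p was 0.0029 in the set against 0.0034 over the list. In OE17-4 it was 1.285e-05 against 1.09e-05.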

How the data were processed

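Peaks were deposited per line, so replicates were not pooled, on genome build TAIR10 per the submitters' processing notes. Neither the aligner nor the peak caller is given in the sources used here, and the same holds for the role of the inputs in calling. Read counts per peak (all, forward and reverse) were deposited as raw numbers, per the file headers. The FDR is the authors' percent value, the strand difference is the authors' fraction of reads, and the Wilcoxon filter p-value is the authors' p-value per peak, per the file headers. Empty rows (1) and repeated regions (1, 2 and 2 in OE3-1, OE9-1 and OE17-4) were dropped, and 18 rows written with 3 dots were kept.

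Gene spans, names and types were read from RefSeq's gene table (TAIR10.1). All overlaps, lengths and positions rest on combining these spans with peaks on TAIR10 without conversion, and gene coordinates are not printed. It holds no strand, exons or sequence, so no motif or sequence is shown. Overlaps, gaps (bases between peak edges) and positions were computed with Python 3.11.15, pandas 2.3.3 and scipy 1.17.1, and the overlap step was tested on simulated data against bedtools. Named genes with full values were those with lines within 200 bp, the first 12 by mean FDR rank, the 3 longest, the 3 shortest, those with 5 or more peaks and the 3 with the widest closest gap. This took 27 genes, and other members are named with their reads. The members, lists and measures were chosen with earlier results of these data known. Each line is 1 library, so the spread within a line is unknown.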

Additional observations from a re-analysis of the deposited data

How the results depend on the processing

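The peak midpoint inside the gene, 50% or more of the peak inside it, and leaving out the rows written with 3 dots each left 42 of the 43 genes, without CHL-CPN10 in the first pair of settings and without DEK1 in the last. The upper 50% of each list by FDR left 8 genes, and a Wilcoxon filter p of 1e-04 or below in every list left 0, a limit met by 23.1% of OE3-1, 12.6% of OE9-1 and 99.97% of OE17-4 peaks. Asking for any 2 named lines, which leaves out the third, gave 155 (without OE3-1), 515 (without OE9-1) and 288 (without OE17-4) genes, which hold the 43 by construction. With a line left out, the median closest gap in the 43 genes went from 378 bp to between 1028 and 1273 bp, and the genes with lines within 200 bp from 14 to between 4 and 8, because fewer pairs are counted. With 500 bp in place of 200 bp they numbered 26. Of 40 values under an alternative, 28 moved by less than their interval or 1.5 times, among them all those of gene length, position and reads. Reads per bp of peak combine the read counts and peak lengths given above, so they are no separate check. They were higher in the OE9-1 peaks of the set than in those of other genes (4.59 against 3.28). For OE3-1 they were lower (3.36 against 3.59). The genes of 3 to 10 kb were chosen after seeing the data, and lengths were not matched within that range. They turned the shares within 500 bp of an end for OE3-1 (27.6% against 22.6%) and OE17-4 (48.3% against 35.7%). Each of these shares of the set rests on 29 peaks. No paired analysis was possible because the inputs were not analysed here and no groups were compared. Library depth is unknown, which limits any comparison of reads between lines.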

Other observations

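The authors' gene column named the same gene as the span in all 3 lines for 34 of the 43 genes, in 2 lines for 6, in 1 line for TRM18 and CHL-CPN10, and in none for AT1G35350. Of the 141 peaks in the set, 4 also overlapped another protein-coding gene, a pair each in CHL-CPN10 and NET1B, and 3 ran over the end of their gene.

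For genes with peaks of exactly 2 lines, the distance to the third line was measured. It was not measured over all genes, so these genes are not called near or far. The median distance from the gene to the nearest peak of the missing line was 8187 bp for OE3-1 (112 genes), 11867 bp for OE9-1 (472 genes) and 12135 bp for OE17-4 (245 genes). Within 1000 bp lay 40 of the 829.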
